A study of Homo sapiens with 16 samples.

Results

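This account describes what a PRMT5 inhibitor did to gene expression in MOLM-13 cells that also received an EZH2 inhibitor. MOLM-13 is an established human acute myeloid leukaemia line with an MLL fusion and a mutated FLT3 receptor. Cells were grown for 4 days with 0.005% DMSO, an EZH2 inhibitor at 1 µM (EZH2i), a PRMT5 inhibitor at 1 µM (PRMT5i), or both inhibitors together (the combination), and total RNA was sequenced from 4 replicates of each. The 4 combination libraries were compared with the 4 EZH2i libraries, which makes 8 of the 16 samples. Cells on both sides of the comparison thus received the EZH2 inhibitor, and the sides differ by the PRMT5 inhibitor. EZH2-inhibited cells below are cells given EZH2i, since these data do not measure how far the enzyme was inhibited. The other 8 libraries, PRMT5i and DMSO, served for a test of whether the response differs from that of cells without EZH2i. All 16 libraries were fitted in a single model, so these 8 also enter the spread behind the p-values of the comparison. The labels give no name for either compound, and the cells come from a single line. The labels do not say whether replicates came from separate cultures. The p-values therefore cover the spread among the 16 libraries within their treatments, which may be technical.

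PRMT5 places symmetric dimethylation on arginines of histones, of the Sm proteins of the spliceosome and of other proteins, and many leukaemia lines need it to proliferate. EZH2 is the catalytic subunit of polycomb repressive complex 2 (PRC2), which methylates lysine 27 of histone H3 and keeps developmental and other genes silent. The series asks how arginine methylation by PRMT5 bears on repression by PRC2. Interferon-stimulated genes, which recur below, are the antiviral genes switched on when a complex that holds STAT2 and IRF9 binds the interferon-stimulated response element, and DNA or RNA sensors inside a cell can start that pathway.

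The EZH2i libraries held between 33.9 and 48.8 M expected counts and the combination libraries between 35.3 and 49.8 M. Of 60669 genes in the table, 16555 had enough counts to be tested. Levels are given as counts per M of library size (CPM) after scaling of library sizes by the trimmed mean of M values (TMM), and the TMM factors of the 8 libraries lay between 1.016 and 1.071. The first principal component of the 8 libraries held 44.5% of the variance and separated the treatments, with EZH2i libraries at −50.7 to −27.6 and combination libraries at 32.8 to 41.6. The second component held 17.7% and spread the EZH2i libraries from −50.4 to 37.8. All 15 markers of the line had enough counts over the 16 libraries to be tested. Their summed level was 1163 to 1314 CPM with EZH2i and 1668 to 1832 CPM in the combination. CD14, a monocyte surface gene on that list, was close to 0 (0.123 and 0.0841 CPM). Of markers of other cell types, 2 of 15 erythroid, 5 of 12 megakaryocyte, 11 of 22 T and NK cell, 9 of 14 B cell and 9 of 19 epithelial and fibroblast genes could be tested, and 5, 2, 3, 2 and 1 of them respectively had 0 counts in all libraries. For some genes, such as MPEG1 below, replicates 3 and 4 lay apart from replicates 1 and 2 in both treatments. The labels do not call these pairs batches, and values within each pair are given where they differ.

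Levels of the drug targets come first, since they show the state of the cells compared. EZH2 (ENSG00000106462.10; GRCh38 chr7:148807383-148884321) had 47.6, 48.6, 48.6 and 48.3 CPM with EZH2i and 36.1, 35.1, 35.0 and 33.8 CPM in the combination, with no overlap between the groups. That is 48.3 ± 0.464 against 35.0 ± 0.943 CPM (mean ± SD, n = 4), a fall of 0.46 on the log2 scale (SE 0.16, adjusted p = 0.0347 in edgeR's quasi-likelihood test with Benjamini-Hochberg adjustment, as for all adjusted p-values below). The call for EZH2 was lost when any 1 of the 8 libraries was left out, and with libraries scaled by total counts only. It held in the other 5 of 14 alternative settings, among them DESeq2 and a fit to the 8 libraries only. PRMT5 itself (ENSG00000100462.15; chr14:22920511-22929585) had 124, 106, 121 and 108 CPM with EZH2i and 129, 127, 119 and 119 CPM in the combination, a log2 fold change of 0.11 (SE 0.08, adjusted p = 0.328). The antisense gene PRMT5-AS1 covers 27.1% of the PRMT5 exon bases, and no source used here says whether reads were counted by strand. Neither mRNA level measures the activity of the enzyme.

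PRMT5i changed the level of 4633 of the 16555 genes in EZH2-inhibited cells at an adjusted p under 0.05, which is 28.0% of the genes tested. Of these, 2221 (13.4%) were higher and 2412 (14.6%) lower in the combination, and the median log2 fold change of all genes was 0.01. The large changes leaned upward: 682 genes rose and 465 fell by at least 1 on the log2 scale, and 165 rose and 55 fell by at least 2. In 4066 of the called genes the 4 combination libraries lay wholly above or below the 4 EZH2i libraries, 87.8% of the calls beside 31.6% of all genes. Protein-coding genes made up most calls, with 1906 higher and 2114 lower, and of 2073 long noncoding RNA genes 209 were higher and 200 lower. Scaled by total counts only, 54.3% of calls were higher in place of 47.9%, with a median of 0.04 over all genes.

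The first genes described are the 12 protein-coding genes with the largest rise among those with at least 5 CPM in the combination and no overlap between libraries. CHRNA6, a nicotinic acetylcholine receptor subunit, had 1.75, 2.67, 3.33 and 2.73 CPM with EZH2i and 39.4, 40, 43.6 and 44.1 CPM in the combination (log2 fold change 3.99, SE 0.24, adjusted p = 1.08e-08). ACPP (ENSG00000014257.15; chr3:132317367-132368298), the prostatic acid phosphatase, had 8.57, 8.24, 9.62 and 9.96 CPM against 107, 112, 123 and 121 CPM, which is 9.10 ± 0.824 against 116 ± 7.79 CPM (SD, n = 4; 3.67, SE 0.10, adjusted p = 8.37e-13). In both genes the groups lay far apart, and for ACPP the libraries of a group also lay close together. MPEG1, a pore-forming protein that macrophages use against engulfed bacteria, had 2.52, 2.77, 4.82 and 5.37 CPM against 31.1, 31, 54.4 and 54.1 CPM (3.47, SE 0.36). In both treatments replicates 3 and 4 were the high libraries for MPEG1, and the log2 ratio was 3.55 within replicates 1 and 2 and 3.41 within replicates 3 and 4. HLA-DRA (ENSG00000204287.13; chr6:32439842-32445046), the alpha chain of the MHC class II molecule DR, had 1.89, 1.41, 1.47 and 2.10 CPM against 12.2, 12.4, 15.1 and 15.4 CPM (3.02, SE 0.16, adjusted p = 3.96e-09). The rest of the 12 were the metallothionein MT1H (0.970 to 11.1 CPM), FAM65B (0.803 to 7.32), the macrophage membrane protein MS4A4A (1.44 to 11.3), the interferon-induced IFITM1 (3.87 to 29.2), the secreted fibrinogen-like FGL2 (19.6 to 137), the chemokine CXCL10 (0.896 to 6.08), the protease inhibitor SERPINB2 (0.894 to 5.95) and IFI44L (6.30 to 40.7), with log2 fold changes of 2.69 to 3.47. IFITM2 overlaps 32.5% of the exon bases of IFITM1 and SERPINB10 19.9% of those of SERPINB2, so these levels are less certain.

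**Figure D1:**
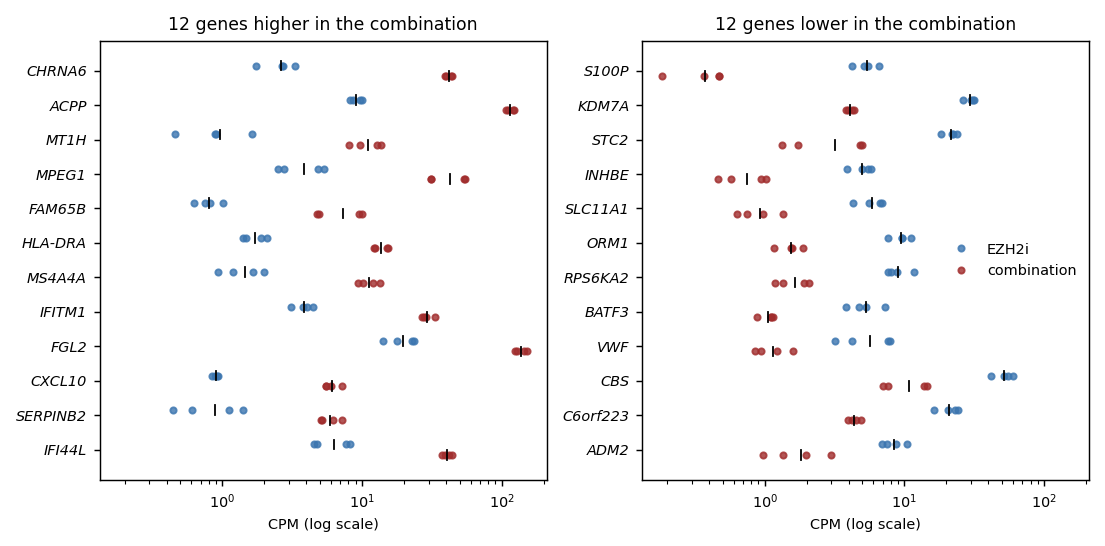
Level in CPM (log axis) of the 12 higher and 12 lower protein-coding genes with the largest change, 1 point per library, EZH2i in blue and combination in red, with a black tick at each group mean. In every gene shown the 4 combination points lie on one side of the 4 EZH2i points, as the choice of genes requires.

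The 12 protein-coding genes that fell most, chosen in the same way, follow. S100P (ENSG00000163993.6; chr4:6693069-6697170), a calcium-binding protein, had 5.48, 4.24, 6.58 and 5.17 CPM with EZH2i and 0.366, 0.185, 0.467 and 0.468 CPM in the combination (−3.86, SE 0.25, adjusted p = 2.65e-08). KDM7A (ENSG00000006459.10; chr7:140084746-140177035), a demethylase of histone H3 lysines, had 26.1, 31.3, 29.9 and 31 CPM against 3.95, 3.81, 4.39 and 4.19 CPM (−2.86, SE 0.18, adjusted p = 1.8e-08). Both genes were low in all 4 combination libraries, with little spread among them for KDM7A. STC2, a secreted glycoprotein of the stress response, behaved less evenly, with 23.9, 22.2, 21.8 and 18.2 CPM against 1.73, 1.32, 4.94 and 4.79 CPM (−2.78, SE 0.30). The other 9 were the activin subunit INHBE (5.01 to 0.748 CPM), the phagosomal metal transporter SLC11A1 (5.89 to 0.923), the acute-phase protein ORM1 (9.49 to 1.54), the kinase RPS6KA2 (9.02 to 1.64), the dendritic cell transcription factor BATF3 (5.28 to 1.06), the clotting factor VWF (5.70 to 1.15), the transsulfuration enzyme CBS (52.0 to 10.8), C6orf223 (21.0 to 4.38) and the peptide hormone ADM2 (8.37 to 1.81), with log2 fold changes of −2.77 to −2.23.

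**Figure D2:**
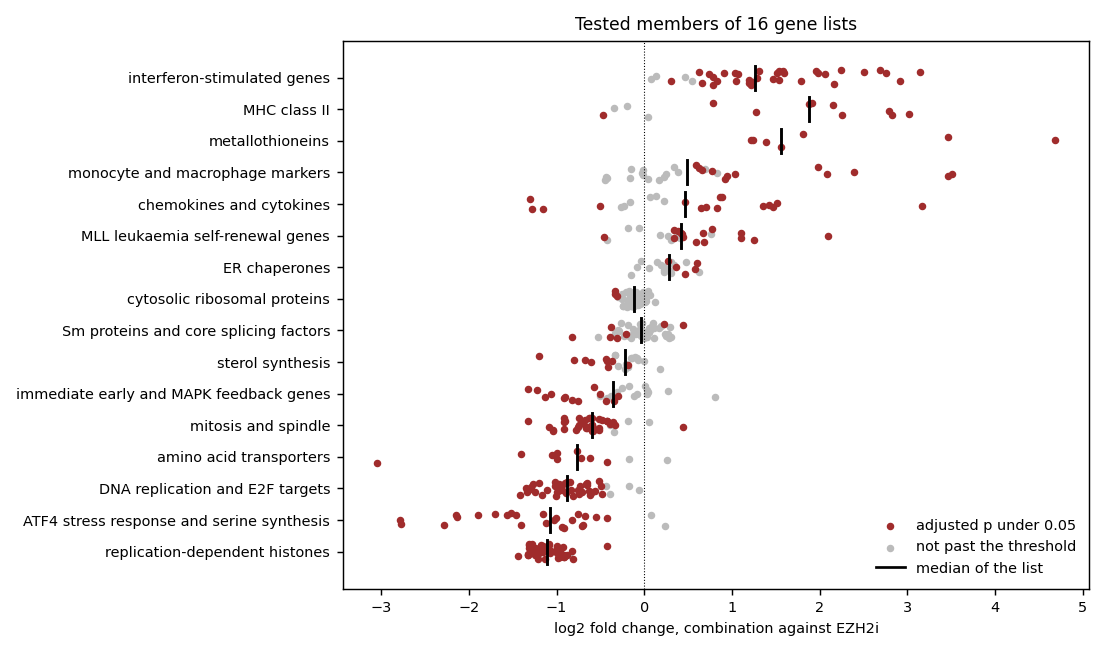
Log2 fold change of the combination against EZH2i for the tested members of 16 gene lists, 1 point per gene, red where the adjusted p was under 0.05 and grey otherwise, with a black bar at the list's median. The medians run from −1.11 for replication-dependent histones to 1.88 for MHC class II genes.

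Interferon-stimulated genes rose nearly throughout. Of 38 on the list, all tested, 34 were higher in the combination than with EZH2i and 0 were lower in edgeR, beside 13.4% higher among all genes, with a median log2 fold change of 1.26. Without EZH2i, PRMT5i raised 12 of the 38 and lowered 6, with a median of 0.26. The promoters of 5 of these genes are printed here because their element is the sequence that the interferon-activated factors read. The capitals mark the core of the interferon-stimulated response element, searched as GAAA, any 2 bases and GAAA on both strands. A match on the opposite strand reads TTTC, any 2 bases and TTTC, and matches can overlap.
IFI6: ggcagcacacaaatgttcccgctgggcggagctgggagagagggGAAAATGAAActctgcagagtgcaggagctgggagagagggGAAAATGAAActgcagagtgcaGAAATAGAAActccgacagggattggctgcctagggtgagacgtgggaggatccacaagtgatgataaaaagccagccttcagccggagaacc
CXCL10: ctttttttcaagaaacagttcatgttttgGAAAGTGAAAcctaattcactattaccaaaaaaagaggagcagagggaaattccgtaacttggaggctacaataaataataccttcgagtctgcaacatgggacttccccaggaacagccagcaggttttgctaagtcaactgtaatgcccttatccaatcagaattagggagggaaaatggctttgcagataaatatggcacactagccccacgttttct
EPSTI1: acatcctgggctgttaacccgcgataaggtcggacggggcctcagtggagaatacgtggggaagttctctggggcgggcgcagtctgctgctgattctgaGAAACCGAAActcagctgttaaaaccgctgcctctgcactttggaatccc
HERC5: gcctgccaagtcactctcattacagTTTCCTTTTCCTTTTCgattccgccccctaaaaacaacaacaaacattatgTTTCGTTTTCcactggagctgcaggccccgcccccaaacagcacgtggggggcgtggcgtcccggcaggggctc
IFITM1: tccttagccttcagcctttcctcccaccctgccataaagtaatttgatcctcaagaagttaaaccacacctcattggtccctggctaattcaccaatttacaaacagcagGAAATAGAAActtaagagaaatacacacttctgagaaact
These stretches, written 5′ to 3′ on the strand of the gene, come from RefSeq promoters of build GRCh38.p14 and end at or just after the annotated start. They lie at chr1:27672193-27672392 (minus strand) for IFI6, chr4:76023498-76023747 (minus strand) for CXCL10, chr13:42992242-42992391 (minus strand) for EPSTI1, chr4:88456969-88457118 (plus strand) for HERC5 and chr11:313890-314039 (plus strand) for IFITM1. IFI6 holds 3 matches at 147, 106 and 84 bases before the start, while HERC5 holds 3 on the opposite strand, 2 of them overlapping. Within 250 bases before to 50 after the start, the element was found in 19 of the 28 promoters of the list that could be matched (67.9%), in 3.09% of the 10842 promoters of tested genes and in 3.65% of all 27305 promoters. Among genes called higher 5.32% held it and among genes called lower 2.28%. The element was chosen for the search after the expression values had been seen, and a match describes the letters and shows no binding.

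IFI6 (ENSG00000126709.14; chr1:27666061-27672218), an antiviral protein that also restrains apoptosis, rose from 23.2 ± 1.75 to 80.5 ± 6.14 CPM (SD, n = 4; 1.79, SE 0.10, adjusted p = 4.16e-09). CXCL10 (ENSG00000169245.5; chr4:76021117-76023497), a chemokine for T cells, had 0.931, 0.924, 0.838 and 0.890 CPM with EZH2i and 5.51, 7.25, 6.04 and 5.51 CPM in the combination (2.76, SE 0.27, adjusted p = 1.38e-06). The EZH2i libraries of CXCL10 lay close together, and all combination libraries lay far above them. MX1, a GTPase that traps viral nucleocapsids, rose from 20.4 to 116 CPM (2.51, SE 0.17), and its relative MX2 from 15.2 to 59.0 CPM (1.96, SE 0.11). OAS1 and OAS2, which make the oligoadenylate signal that activates RNase L, rose from 12.9 to 38.6 CPM and from 14.5 to 65.0 CPM (1.58 and 2.16). The ubiquitin-like modifier ISG15 rose from 30.5 to 84.6 CPM (1.47) and its ligase HERC5 from 12.3 to 28.6 CPM (1.22). Among the factors of the pathway itself, IRF9 rose from 17.8 to 31.7 CPM (0.83) and STAT2 from 72.8 to 90.1 CPM (0.31, SE 0.07). IRF7 (0.08), IFITM2 (0.13), BST2 (0.47) and IFI35 (0.54) did not pass. The list's summed level was 1020 to 1094 CPM in the EZH2i libraries and 2039 to 2481 CPM in the combination libraries, with no overlap. The median log2 ratio of the list was 1.38 within replicates 1 and 2 and 1.14 within replicates 3 and 4.

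Genes that sense nucleic acids and the interferon gene itself were looked up after the values of the list had been seen. Those named here all rose, but they are examples picked with their values in view. Their rise can thus not be set against the share of all genes. The share of all sensor genes that rose was not counted, and DDX58 is grouped below with interferon-stimulated and related genes. IFNB1, interferon beta, had 0.137, 0.161, 0.236 and 0.144 CPM with EZH2i and 0.462, 0.485, 0.357 and 0.331 CPM in the combination (1.27, SE 0.29, adjusted p = 0.00318), a low level in all libraries that did not overlap. EIF2AK2, the kinase PKR that double-stranded RNA activates, rose from 78.1 to 163 CPM (1.06, SE 0.11). The RNA helicase sensors DDX58 (RIG-I) and IFIH1 (MDA5) rose from 23.6 to 53.9 CPM (1.19) and from 26.4 to 54.8 CPM (1.05). The endosomal receptor TLR3 (1.59, 0.366 to 1.11 CPM) and the DNA sensor AIM2 (1.25, 0.405 to 0.970 CPM) rose from low levels. GBP1, an interferon-induced GTPase, rose from 0.131 to 1.14 CPM (3.15, SE 0.46).

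The response of interferon-stimulated genes to PRMT5i differed from that without EZH2i. The difference between the responses, the combination against EZH2i minus PRMT5i against DMSO on the log2 scale, passed at an adjusted p under 0.05 in 48 of 16555 genes (0.290%), with 42 positive and 6 negative. Of these 48, 25 are on the interferon list (52.1% of the 48 and 65.8% of the list), and all 25 were positive. IFI6 averaged 42.0 CPM under DMSO, 23.2 under EZH2i, 55.1 under PRMT5i and 80.5 under both. PRMT5i thus raised IFI6 by 1.79 with EZH2i present and by 0.39 without it (difference 1.40, SE 0.14, adjusted p = 1.43e-04). MX2 had means of 28.8, 15.2, 42.8 and 59.0 CPM in the same order (difference 1.38, SE 0.16, adjusted p = 4.42e-04), and OAS1 had 21.1, 12.9, 24.1 and 38.6 CPM (1.39, SE 0.14, adjusted p = 1.82e-04). In all 3 genes EZH2i had the lowest and the combination the highest mean.

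Over the 38 genes the lowest mean lay in EZH2i for 31 and the highest in the combination for 34, and for 27 every combination library lay above every library of the other groups. EPSTI1 had 9.12, 5.87, 11.5 and 23.1 CPM (difference 1.65, adjusted p = 7.94e-04), IFITM1 8.38, 3.87, 21.8 and 29.2 CPM (1.55, adjusted p = 7.94e-04), HERC5 15, 12.3, 14.5 and 28.6 CPM (1.27, adjusted p = 0.00118) and MX1 41.2, 20.4, 70.1 and 116 CPM (1.74, adjusted p = 0.00146). CXCL10 followed another order, with 7.46, 0.896, 4.17 and 6.08 CPM. It fell by 0.84 with PRMT5i alone and rose by 2.76 with EZH2i present (difference 3.60, SE 0.36, adjusted p = 1.43e-04). Its mean in the combination, 6.08 ± 0.820 CPM, lay below that with DMSO, 7.46 ± 3.06 CPM (SD, n = 4), and the libraries of these groups overlapped. IFIT2, IFIT3, XAF1 and STAT2 likewise fell with PRMT5i alone (−0.59, −0.45, −0.26 and −0.31) and rose with EZH2i present (0.74, 1.07, 0.63 and 0.31). PRAL, on the opposite strand, covers 38.3% of the exon bases of XAF1.

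**Figure D3:**
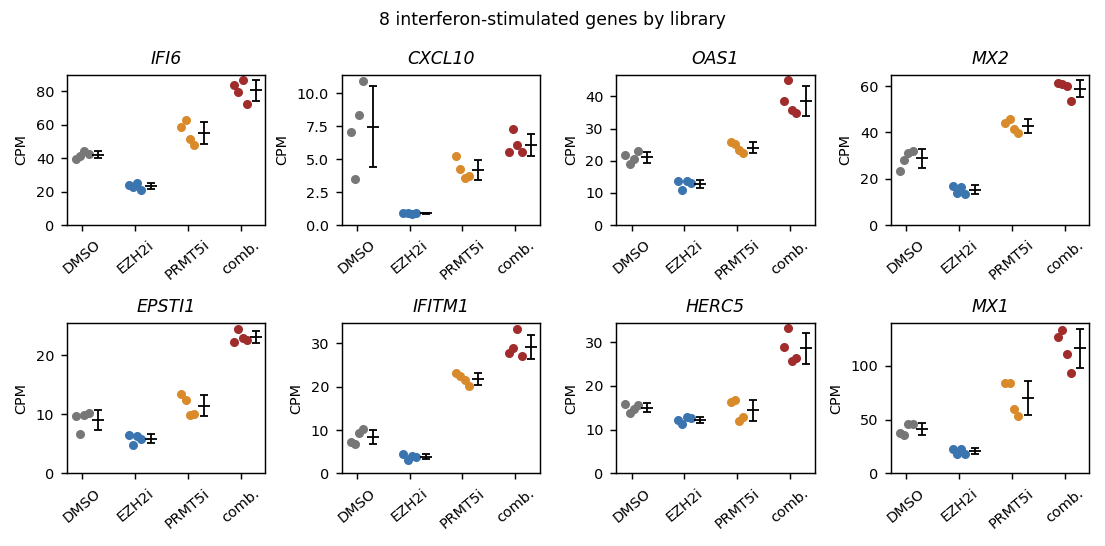
CPM of the 8 interferon-stimulated genes with the smallest p for the difference between the PRMT5i responses, 1 point per library in the 4 treatments, with the mean and SD (n = 4) beside each group. In all 8 genes the 4 combination points lie above the 4 EZH2i points, and in all but CXCL10 they also lie above the DMSO and PRMT5i points.

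Genes of DNA replication fell as a block. Of 47 on the list 43 fell and 0 rose, beside 14.6% lower among all genes, with a median of −0.88, and their summed level was 4738 to 5119 CPM with EZH2i and 2681 to 2827 CPM in the combination. The list holds targets of the E2F transcription factors, which switch on replication genes at the start of S phase. The promoters of 4 of them are printed because they carry E2F sites. The capitals mark matches of TTTGGCGC, TTTCGCGC, TTTGGCGG or TTTCCCGC, searched on both strands, where one stretch can match on both and sites can overlap.
CDC45: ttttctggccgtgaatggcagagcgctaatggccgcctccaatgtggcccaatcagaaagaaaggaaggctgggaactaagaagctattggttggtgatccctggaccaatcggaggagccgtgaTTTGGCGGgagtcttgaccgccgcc
CDC6: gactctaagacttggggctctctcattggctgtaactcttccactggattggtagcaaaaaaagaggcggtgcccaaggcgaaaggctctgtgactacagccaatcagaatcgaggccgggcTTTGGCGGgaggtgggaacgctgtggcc
MCM6: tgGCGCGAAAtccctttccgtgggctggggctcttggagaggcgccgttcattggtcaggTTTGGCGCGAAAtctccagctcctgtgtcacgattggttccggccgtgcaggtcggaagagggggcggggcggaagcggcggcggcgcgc
CDT1: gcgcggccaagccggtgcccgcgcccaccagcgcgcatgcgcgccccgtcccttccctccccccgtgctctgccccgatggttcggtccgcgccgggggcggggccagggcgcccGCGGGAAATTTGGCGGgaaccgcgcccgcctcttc
They are RefSeq promoters of build GRCh38.p14, written 5′ to 3′ on the strand of the gene, at chr22:19479770-19479919 (plus strand), chr17:40287729-40287878 (plus strand), chr2:135876444-135876593 (minus strand) and chr16:88803639-88803788 (plus strand). One of these E2F sequences was found in 24 of 42 matched promoters of the list (57.1%), in 12 of 36 of the replication-dependent histones (33.3%), in 5 of 37 of the mitosis list (13.5%), in 5.63% of promoters of tested genes and in 3.43% of all promoters. The CCAAT box, searched as ATTGG on both strands, was found in 57.1%, 83.3% and 67.6% of the same lists, beside 36.9% of promoters of tested genes and 35.7% of all promoters.

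ORC1, the largest subunit of the complex that marks replication origins, had 73.0, 64.9, 70.6 and 71.0 CPM with EZH2i and 28.6, 27.9, 28.5 and 29.2 CPM in the combination (−1.29, SE 0.07, adjusted p = 4.62e-09). CDC45, part of the replicative helicase, had 49.2, 48.1, 50.1 and 43.9 CPM against 20.7, 20.2, 21.1 and 21.3 CPM (−1.20, SE 0.08). Both genes were tightly grouped within each treatment and far apart between them. The helicase loaders CDC6 and CDT1 fell from 64.2 to 32.7 CPM (−0.97) and from 78.6 to 32.1 CPM (−1.29), and the helicase subunit MCM6 from 211 to 114 CPM (−0.88). RRM2, the subunit of ribonucleotide reductase that limits nucleotide supply, fell from 203 to 83.8 CPM (−1.27), but AC007240.1 overlaps 20.2% of its exon bases. GINS4 fell by 1.42 and POLA1, the polymerase that starts DNA strands, by 1.34, from 89.1 to 35.1 CPM. A gene on the opposite strand overlaps 21.2% of GINS4. The transcription factor gene E2F1 itself fell from 20.4 to 8.60 CPM (−1.24).

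Of 45 tested replication-dependent histone genes, which are made in S phase, 44 fell and 0 rose (median −1.11), among them the linker histone HIST1H1B, from 607 to 258 CPM (−1.24, SE 0.11). Histone genes are near-identical copies, so single members are less certain than the list. Of 43 genes of mitosis 36 fell and 1 rose (median −0.60). All these counts stand beside 14.6% lower and 13.4% higher among all genes. AURKB, the kinase that corrects chromosome attachment, had 33.9, 31, 34.3 and 28.2 CPM with EZH2i and 13.4, 11.9, 12 and 13.2 CPM in the combination (−1.33, SE 0.12). TOP2A, which untangles chromosomes, fell from 480 to 234 CPM (−1.04), and NCAPG, a condensin subunit, from 103 to 48.2 CPM (−1.09). SMC4, another condensin subunit, was the member that rose (0.44, SE 0.11), with 18.5% of its exon bases shared with TRIM59 on the other strand. Of 30 genes of the Fanconi pathway and homologous recombination 22 fell and 0 rose (median −0.69), such as FANCD2 (72.4 to 29.7 CPM, −1.29) and BRCA1 (82.2 to 41.2 CPM, −1.0). Of 14 cyclins and cell cycle kinases 8 fell (median −0.47), including CDK2 (−0.87) and CCNB2 (−0.60). In bulk samples, fewer cells in S phase and less RNA of these genes per cell cannot be told apart.

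The median falls of these lists were smaller than those that PRMT5i gave without EZH2i, though few single genes passed a test of the difference. The median of the replication list was −0.88 with EZH2i present and −1.06 without, that of mitosis −0.60 and −1.03, and that of histones −1.11 and −1.71. The difference between the responses was above 0 for 37 of the 43 called replication genes and 44 of the 44 called histone genes, beside 57.8% of all 2412 genes called lower. Tested gene by gene, it passed for 1 replication gene, CDC45 (0.64, SE 0.12, adjusted p = 0.0259), and for 1 gene of the histone list, HIST1H4I (0.78), and over the alternatives run these counts ranged from 0 to 2 and from 0 to 4.

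The ATF4 pathway fell, with the lowest median of the 41 lists after histones. ATF4 is the transcription factor of the integrated stress response, which raises the enzymes of serine, asparagine and cysteine supply and the transporters that bring amino acids in. Of 26 tested genes 24 fell and 0 rose, with a median of −1.07, and of 11 amino acid transporters 9 fell and 0 rose, with a median of −0.77. These are 92.3% and 81.8% of the lists, beside 14.6% lower among all genes. The promoters of CHAC1 and ASNS are printed because each carries the sequence that ATF4 and its partners read. Capitals mark TGATGNAAN on either strand, which in CHAC1 is the opposite one, and matches can overlap.
CHAC1: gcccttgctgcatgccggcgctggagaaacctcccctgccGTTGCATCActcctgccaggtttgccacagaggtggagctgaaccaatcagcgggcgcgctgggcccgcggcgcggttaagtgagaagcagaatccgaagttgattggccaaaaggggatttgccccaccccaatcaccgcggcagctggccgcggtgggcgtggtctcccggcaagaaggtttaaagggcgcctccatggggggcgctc
ASNS: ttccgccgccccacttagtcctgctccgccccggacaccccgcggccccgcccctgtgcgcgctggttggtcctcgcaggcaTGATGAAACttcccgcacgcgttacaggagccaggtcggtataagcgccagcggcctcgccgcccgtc
They are RefSeq promoters of build GRCh38.p14 at chr15:40953221-40953470 (plus strand) and chr7:97872409-97872558 (minus strand). The letters were found in 3 of 19 matched promoters of the list (15.8%), in 1.74% of promoters of tested genes and in 3.67% of all promoters.

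TRIB3, a pseudokinase that ATF4 induces, had 162, 144, 147 and 119 CPM with EZH2i and 42.4, 41.3, 64.1 and 59.8 CPM in the combination (−1.46, SE 0.14, adjusted p = 1.62e-06). PHGDH, which commits glucose carbon to serine, had 300, 218, 250 and 193 CPM against 37.5, 33.9, 73.6 and 71.1 CPM (−2.15, SE 0.26). CHAC1, which degrades glutathione, had 24.5, 21.5, 18.6 and 14 CPM against 1.31, 0.762, 7.22 and 8.87 CPM (−2.14, SE 0.49, adjusted p = 0.00355). In all 3 genes the groups did not overlap, and replicates 3 and 4 of the combination were its high libraries. ASNS, the asparagine synthetase, fell from 218 to 58.3 CPM (−1.90, SE 0.21), although AC079781.5, on the same strand, overlaps it by 44.6%. ATF4 mRNA fell from 587 to 287 CPM (−1.03, SE 0.14), and the transsulfuration enzymes CBS and CTH fell from 52.0 to 10.8 CPM (−2.28) and from 18.8 to 8.69 CPM (−1.12). The cystine importer SLC7A11 fell from 57.2 to 21.7 CPM (−1.40), the leucine transporter SLC7A5 from 354 to 171 CPM (−1.05) and the glycine transporter SLC6A9 from 3.06 to 0.384 CPM (−3.05). Of 20 aminoacyl-tRNA synthetases, which charge tRNAs and are partly under ATF4, 10 fell and 0 rose (median −0.39). That is 50% lower, beside 14.6% lower and 13.4% higher among all genes, with 8 to 12 lower over the alternatives.

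The size of the ATF4 response differed between replicate pairs. The list's median log2 ratio was −1.51 within replicates 1 and 2 and −0.76 within replicates 3 and 4, and for the amino acid transporters it was −1.12 and −0.54. In 23 of the 24 called members both combination replicates 3 and 4 lay above both combination replicates 1 and 2. CHAC1 had log2 ratios of −4.47 and −1.02 in the pairs, STC2 −3.92 and −2.04, and PHGDH −2.86 and −1.61. The replication list did not show this, with −0.86 and −0.88. The labels do not say what separates the replicate pairs. The same 24 genes were called lower under each of 14 alternatives. Without EZH2i the list's median was −1.66, and the difference between the responses passed for CTH (1.09, adjusted p = 0.00398) and, in some settings only, for DDIT3 (0.86, adjusted p = 0.0370), a stress transcription factor whose exon bases MARS covers by 27.2% on the opposite strand.

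**Figure D4:**
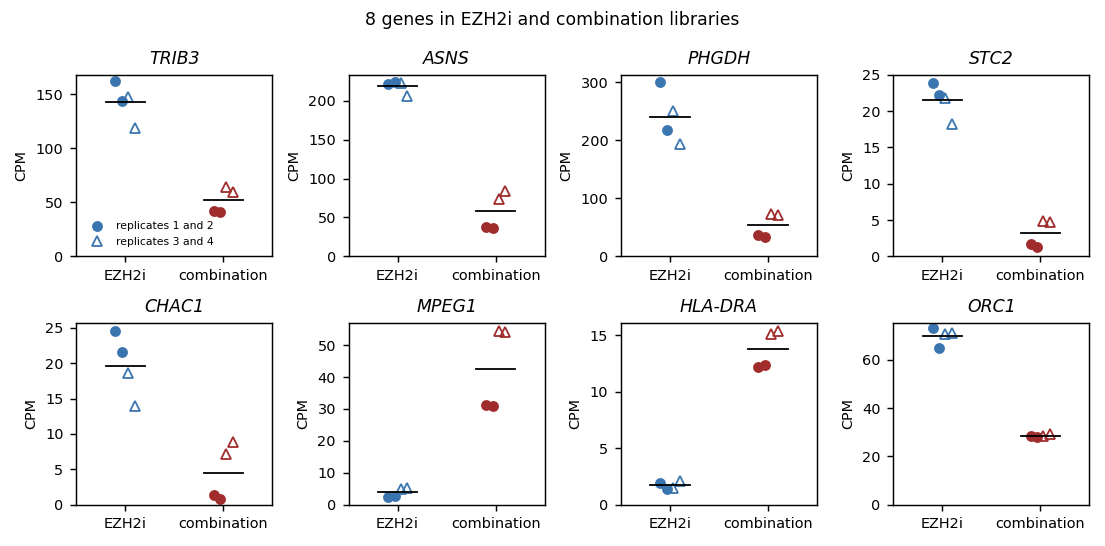
CPM of 8 genes in the EZH2i and combination libraries, with filled circles for replicates 1 and 2, open triangles for replicates 3 and 4 and a line at each group mean. For the stress genes TRIB3, ASNS, PHGDH, STC2 and CHAC1 the triangles of the combination lie above its circles, for MPEG1 and HLA-DRA too, while the 4 combination points of ORC1 lie together.

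Genes of antigen presentation by MHC class II rose. These molecules show peptides to helper T cells, and the coactivator CIITA switches their genes on. Of 13 tested genes 9 rose and 1 fell (median 1.88), beside 13.4% higher and 14.6% lower among all genes. CIITA had 1.40, 0.904, 0.969 and 0.861 CPM with EZH2i and 3.99, 4.02, 3.95 and 3.20 CPM in the combination (1.88, SE 0.22, adjusted p = 8.09e-06), with no overlap. HLA-DRB1 rose from 0.323 to 2.35 CPM (2.83), HLA-DQB1 from 0.534 to 2.43 CPM (2.15), the peptide loader HLA-DMB from 0.272 to 1.94 CPM (2.79) and the invariant chain CD74 from 96.1 to 165 CPM (0.78, SE 0.26, adjusted p = 0.0312). Without any 1 of EZH2i replicates 2 and 4 and combination replicates 3 and 4 CD74 did not pass. HLA genes resemble each other, so reads can be misplaced between them. The DNA-binding factors RFX5 (0.04) and RFXANK (−0.20) did not pass, although RFXANK passed without EZH2i replicate 4 (−0.31, adjusted p = 0.0227). The call for RFXAP (−0.47) was lost without EZH2i replicate 2 or 4 or any 1 combination library, with total counts only, with no filter on low counts and in a fit to the 8 libraries only. For 8 of the 9 genes that rose, the combination mean was below the PRMT5i mean, for HLA-DRA 13.8 against 28.4 CPM and for CIITA 3.79 against 6.31 CPM. The median response without EZH2i was 2.32, and the smallest adjusted p for the difference between the responses among the 13 was 0.147, for HLA-DMA. MHC class I genes had 3 higher and 4 lower of 16 (18.8% and 25%, median 0.01), and the count lower was 2 with no filter and without EZH2i replicate 1 or combination replicate 2.

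Monocyte and macrophage markers had 12 higher and 0 lower of 28 tested (median 0.48), or 42.9% higher beside 13.4% higher and 14.6% lower among all genes. Their summed level was 1460 to 1613 CPM with EZH2i and 1794 to 2028 CPM in the combination. ITGAM, the CD11b chain of the complement receptor, had 36.0, 32.8, 30.1 and 30.4 CPM against 59.8, 61.2, 71.5 and 72.1 CPM (1.03, SE 0.10, adjusted p = 1.14e-06). TLR2, a receptor for bacterial lipoproteins, rose from 28.5 to 54.7 CPM (0.94). CD14 (−0.45), CSF1R (0.34), CD68 (−0.01) and VCAN (−0.16), also on the list, did not pass. Granule genes of granulocytes had 3 lower (21.4%) and 1 higher (7.14%) of 14, counts close to the shares of all genes. The count lower was 5 without EZH2i replicate 4, and the count higher 2 without EZH2i replicate 1. Among them, AZU1 fell from 655 to 265 CPM (−1.30), MPO from 29 to 16.5 CPM (−0.81) and BPI by 0.65, a call lost without EZH2i replicate 1, while RNASE3 rose (0.63). Of 27 myeloid transcription factors 3 rose (11.1%) and 8 fell (29.6%). IRF8, a regulator of monocyte fate, rose from 215 to 304 CPM (0.50, SE 0.07), and CEBPE (−1.45), GATA2 (−1.0), EGR1 (−1.13) and EGR2 (−1.22) fell. GATA2 had 106, 100, 55.5 and 56.9 CPM with EZH2i and 50.8, 43.9, 34.2 and 30.6 CPM in the combination, lower within each replicate pair, and its call was lost without EZH2i replicate 1 or 2 or combination replicate 3 or 4. Integrins and other adhesion genes had 10 higher and 2 lower of 21, with ITGAL, the lymphocyte function antigen chain, rising from 526 to 757 CPM (0.53) and ITGB7 rising by 1.54, although ZNF740 covers 42.1% of it.

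Some genes typical of lymphocytes rose from low levels in these myeloid cells. Of 9 tested B cell markers 6 rose and 0 fell (median 1.26), beside 13.4% higher among all genes. Over the alternatives 4 to 6 rose, and 3 of the 6 calls held in all 14 settings. The list's summed level was 15.9 to 25.7 CPM with EZH2i and 31.6 to 44.7 CPM in the combination. IGKC, the kappa light chain constant gene, had 1.31, 0.924, 1.39 and 1.32 CPM against 7.36, 7.09, 9 and 8.24 CPM (2.68, SE 0.24, adjusted p = 5.42e-07). CD79A (−0.20), a defining gene of B cells, did not pass. Of 11 T and NK cell markers 4 rose (36.4%) and 2 fell (18.2%, beside 14.6% of all genes), with IL7R, the interleukin 7 receptor, at 14.9, 12.6, 13 and 15 CPM against 42.6, 47.3, 30.8 and 32.4 CPM (1.47, SE 0.13) and CD3D falling from 7.14 to 3.92 CPM (−0.86). The summed level of the T and NK list was 268 to 349 CPM with EZH2i and 248 to 261 CPM in the combination. Over tested genes only, the 2 erythroid genes summed to 685 to 907 CPM with EZH2i and 585 to 750 CPM in the combination. In the same order, the 5 megakaryocyte genes summed to 27.3 to 49.5 and 32.0 to 39.3 CPM. The 9 epithelial and fibroblast genes summed to 290 to 379 and 288 to 348 CPM. These ranges overlap, but 1 gene of each list fell (50%, 20% and 11.1%, beside 14.6% of all genes). In the epithelial and fibroblast list 2 genes rose (22.2%, beside 13.4%), and its fall was lost in some settings. The part of other cell types in the results was not tested.

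Self-renewal genes associated with MLL leukaemia had 14 higher and 1 lower of 24 (median 0.42), beside 13.4% higher and 14.6% lower among all genes. The count lower was 2 in a fit to the 8 libraries only and without EZH2i replicate 4 or combination replicate 1. HOXA5 rose from 3.09 to 7.35 CPM (1.25, SE 0.11), HOXA9 from 50.9 to 68.8 CPM (0.44) and HOXA10 from 31.8 to 47.7 CPM (0.59), the last 2 with an antisense gene over 13.9% and 16.4% of their exon bases. FLT3, the receptor kinase that drives this line, had 430, 442, 528 and 564 CPM with EZH2i and 789, 857, 829 and 869 CPM in the combination (0.77, SE 0.10, adjusted p = 4.04e-05), with no overlap. KIT, a related receptor of progenitor cells, rose from 0.415 to 1.78 CPM (2.10, SE 0.25). BCL2, which blocks apoptosis, fell from 309 to 224 CPM (−0.46), MYC (−0.43, adjusted p = 0.0726, but −0.50 and past the threshold without EZH2i replicate 4) and MYB (−0.06) did not pass, and the BCL2 relative MCL1 rose from 238 to 352 CPM (0.57, SE 0.09). In the BCL2 family 3 rose (21.4%) and 2 fell (14.3%) of 14, close to the shares of all genes, with the death-promoting BBC3 falling by 0.73. Targets of p53 had 10 higher and 3 lower of 29 (median 0.10): BTG2, which slows proliferation, rose from 21.7 to 44.5 CPM (1.04), the p53 antagonist MDM2 rose by 0.52, and CDKN1A, the p21 inhibitor, did not pass (−0.06, adjusted p = 0.534).

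Chemokines and cytokines had 11 higher (52.4%) and 4 lower (19%) of 21 tested (median 0.47), beside 13.4% higher and 14.6% lower among all genes. The monocyte attractant CCL2 had 0.274, 0.121, 0.288 and 0.230 CPM with EZH2i and 2.25, 1.66, 1.81 and 2.40 CPM in the combination (3.17, SE 0.26, adjusted p = 2.68e-07). The death ligand TNFSF10 rose from 10.1 to 28.7 CPM (1.51) and TNFSF13B, the B cell survival factor, from 39.3 to 100 CPM (1.35). CCL5 moved the other way, from 347, 246, 269 and 201 CPM to 101, 99.2, 120 and 113 CPM (−1.30, SE 0.15), and so did the angiogenic factor VEGFA, from 127 to 52.1 CPM (−1.28, SE 0.15). All 7 tested metallothioneins, small proteins that bind zinc and copper, rose (median 1.56, and 1.02 without EZH2i). MT1G had 17.7, 18.4, 14.9 and 8.76 CPM against 44.6, 40.2, 46.7 and 44.9 CPM (1.56, SE 0.17), and MT2A rose from 8.04 to 28.4 CPM (1.81). Their median log2 ratio was 1.23 within replicates 1 and 2 and 1.93 within replicates 3 and 4, and these genes are near-identical copies.

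Signalling and metabolic lists moved by smaller amounts, and their counts stand beside 13.4% higher and 14.6% lower among all genes. Of 28 immediate early and MAPK feedback genes 13 fell and 0 rose (median −0.36): SPRY1, a brake on receptor kinase signalling, fell from 10.5 to 4.15 CPM (−1.33, SE 0.16), EGR1 from 7.77 to 3.55 CPM and the transcription factor ETV4 from 16.9 to 8.09 CPM (−1.06). Of 23 sterol synthesis genes 9 fell and 0 rose (median −0.22). They were led by MVD (45.6 to 19.9 CPM, −1.20) and FDPS (235 to 135 CPM, −0.80), both enzymes of the mevalonate pathway, although RUSC1-AS1 covers 18.6% of FDPS. Glycolysis genes had 6 lower and 1 higher of 20 (median −0.20), with GAPDH falling from 3784 to 2694 CPM (−0.49, SE 0.08) and the glucose transporter SLC2A1 rising from 49.4 to 73.0 CPM (0.56). Chaperones of the endoplasmic reticulum had 5 higher and 0 lower of 20 (median 0.28). That last count was 9 in a fit to the 8 libraries only, 8 in DESeq2, 3 without EZH2i replicate 1, combination replicate 2 or combination replicate 4, and 2 without EZH2i replicate 3 or combination replicate 1. Lysosomal genes had 6 higher and 6 lower of 32 (18.8% each, near the shares of all genes). Their count lower was 3 with total counts only and without EZH2i replicate 2 or combination replicate 2, and 2 without EZH2i replicate 1.

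Most genes of the machinery closest to the inhibited enzymes did not pass, as among all genes, of which 28.0% passed. Of 15 members of the PRMT family and PRMT5 partners 3 fell and 0 rose (median −0.04), beside 14.6% lower among all genes, and 1 fell with no filter and 5 in a fit to the 8 libraries only. Among the 3 was PRMT1, the main asymmetric arginine methyltransferase, which fell from 316 to 242 CPM (−0.39, SE 0.09, adjusted p = 0.00506). Among 12 PRC2 subunits JARID2, which recruits the complex, had 140, 126, 139 and 129 CPM with EZH2i and 220, 222, 217 and 217 CPM in the combination (0.71, SE 0.08, adjusted p = 6.77e-06). EZH2, RBBP7 (−0.53), EZH1 (−0.44) and PHF19 (−0.53) fell. With JARID2, that is 1 higher (8.33%) and 4 lower (33.3%) of the 12, beside 13.4% higher and 14.6% lower among all genes. The PRC2 counts ranged from 1 to 2 higher and from 3 to 4 lower over the alternatives. PRC1 subunits had 1 higher and 5 lower of 21, counts that ranged from 0 to 4 and from 2 to 6 over the alternatives. Developmental regulators, which PRC2 is known to silence, stayed mostly below the level that can be tested: 21 of 107 were tested, and 35 had 0 counts in all libraries. Of the 21, 5 rose (23.8%) and 1 fell (4.76%), beside 13.4% higher and 14.6% lower among all genes. Over the alternatives 4 to 5 of the developmental regulators rose and 1 to 3 fell. Sm proteins and core splicing factors, known substrates or partners of PRMT5, had 2 higher and 5 lower of 49 (median −0.04), LSM4 falling from 113 to 64.1 CPM (−0.82, SE 0.09). In a fit to the 8 libraries only these counts were 5 and 12. Ribosome biogenesis and MYC targets had 1 higher and 8 lower of 39, among them CAD (−0.95) and NOP56 (−0.52), with 3 to 9 lower over the alternatives. Cytosolic ribosomal proteins had 0 higher and 3 lower of 76, with 0 to 9 lower over the alternatives, and the proteasome core had 0 higher and 1 lower of 27. Among the lists of this paragraph, the shares lower were set beside 14.6%, the share of all genes in the main fit. On which side of it they lay changed with the setting for the PRC1, PRMT, ribosome biogenesis and splicing lists. Where a list above had 0 genes in a direction in edgeR, DESeq2 also gave 0, except for 2 higher PRMT genes, 1 higher proteasome gene and 1 lower monocyte marker. At an unadjusted p under 0.05 the counts were also 0, except for 3 higher PRMT genes, 2 higher proteasome genes, 2 lower monocyte markers and 1 higher tRNA synthetase.

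Set beside PRMT5i against DMSO, which shares no library with this comparison and called 5847 genes (35.3%), most of the response was common. Both comparisons called 3493 genes, 75.4% of the calls with EZH2i present and 59.7% of those without. Of these, 3487 moved the same way and 6 the opposite way, namely IFIT2, IFIT3, XAF1, CXCL10, STAT2 and the pseudogene LRRC37A16P, whose call was lost in 12 of 14 settings, among them the replicate block and leaving out any 1 of the 8 libraries. A further 1140 genes passed only with EZH2i present, but the difference between the responses passed for just 18 of them. KDM7A, CHRNA6 and ACPP changed by −2.86, 3.99 and 3.67 with EZH2i present and by −2.79, 3.77 and 3.53 without it. Among the 48 genes whose responses differed, 20 moved the same way and further with EZH2i present, 13 the same way and less far, and 15 had opposite signs. Of the 23 not on the interferon list, several are also known to respond to interferon, among them SAMD9L (1.71 with EZH2i present, 0.54 without), HERC6 (1.34 and 0.34), SLFN5 (1.25 and 0.24) and DDX60 (1.03 and 0.10). The 6 with a negative difference were PDGFRB (1.43 and 2.67), CXCR3 (1.22 and 2.70), ADAMTS10 (0.83 and 1.88), FAM46C (0.03 and 1.32), SIGLEC6 (−0.00 and 0.86) and TSPAN9 (−0.29 and 1.35). The count of 48 was 121 in DESeq2, and over fits that left out 1 library it ran from 29, without PRMT5i replicate 4, to 124, without DMSO replicate 2. At an unadjusted p under 0.05 there were 1489 genes. The DMSO libraries enter this test, and DMSO replicate 1 stood apart with a TMM factor of 0.861. Its mitochondrial genes held 1.698% of counts, where the next highest library, combination replicate 2, had 0.792%. Without DMSO replicate 1 the count of 48 was 40, and the calls for the combination against EZH2i rose from 4633 to 5553.

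**Figure D5:**
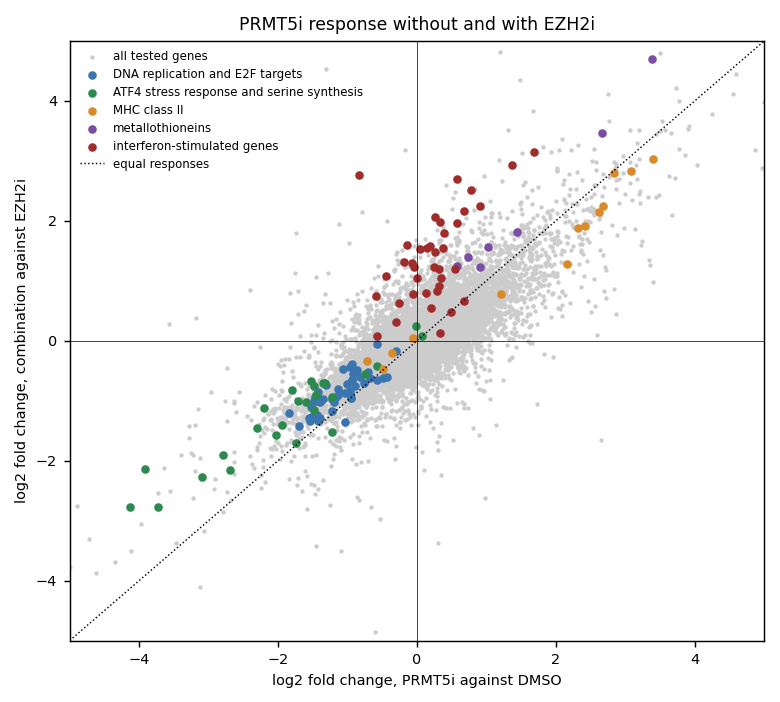
Log2 fold change of the combination against EZH2i (vertical) and of PRMT5i against DMSO (horizontal), 1 grey point per tested gene, with 5 lists in colour and a dotted line of equal responses. The interferon-stimulated genes lie above the line, the ATF4 genes mostly above it on the lower left, and 21 genes lie beyond the plotted limit of 5.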

How the data were processed

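The values deposited by the authors are expected counts of genes from RSEM, unscaled, in 1 table of 16 columns, all used here. The submitters' processing notes list the aligner STAR 2.5.3, RSEM and the build GRCh38.p7. The annotation and strand setting are not given in the sources used here.

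Expected counts were rounded, genes kept with filterByExpr of edgeR 4.0.16 (R 4.3.3) and libraries scaled by TMM. One quasi-likelihood model of 4 group means over 16 libraries gave combination minus EZH2i, PRMT5i minus DMSO and the difference between these. Adjusted p-values (Benjamini-Hochberg over all 16555 genes, threshold 0.05), log2 fold changes and their SE come from this edgeR model. It was tested on simulated data. Gene positions and overlaps come from GENCODE release 29, and promoters (250 bases before to 50 after the start) from RefSeq, GRCh38.p14.

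The comparison, the 41 gene lists and their members were chosen with earlier results of these data known. Genes named are the 12 higher and 12 lower protein-coding genes with the largest change (at least 5 CPM in the higher group, no overlap between libraries), up to 4 called members of each list with the smallest p and up to 2 in its minority direction, and the 8 genes with the smallest p for the difference. Some genes that this rule takes are not reported here. Further genes were picked with their values in view, as examples of a count. Alternatives were DESeq2 1.42.0, total counts only, no filter on low counts, the 2 groups alone, a replicate block, replicates 1 and 2 against 3 and 4 as a term, and leaving out each library. Leaving out DMSO or PRMT5i libraries for the comparison itself was added after seeing the data.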

Additional observations from a re-analysis of the deposited data

Results flagged for a closer look

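In 8 of the 308 groups of 4 libraries examined, over 154 named genes, a single library lay apart from the other 3, with a gap to its nearest neighbour above the critical share of the range in Dixon's test. Chance gives about 1 such group in 20 when groups are independent and not selected. These genes were largely chosen for a small p or for no overlap, and all share the same 8 libraries. The count of outlying libraries therefore cannot be judged against that rate. Among interferon-stimulated genes, combination replicate 1 was high for IRF9 (33.8 CPM, the others at 30.8 to 31.3). The DNA sensor AIM2 was lowest in combination replicate 4 (0.799 CPM, the others at 1.02 to 1.04). Among MHC class II genes, CIITA was lowest in combination replicate 4 (3.20 CPM), HLA-DQB1 in combination replicate 1 (2.39 CPM, the others at 2.44 to 2.45) and HLA-DMB in EZH2i replicate 4 (0.172 CPM, the others at 0.301 to 0.314). ASNS was lowest in EZH2i replicate 4 (206 CPM), CD3D in combination replicate 3 (2.77 CPM), and RNASE3 highest in EZH2i replicate 1 (12.2 CPM).

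The response to PRMT5i differed by the presence of EZH2i for 48 genes, by the test of the difference in edgeR. Among interferon-stimulated and related genes the response with EZH2i minus that without was, on the log2 scale, 3.60 for CXCL10, 2.11 for IFI44L, 1.74 for MX1, 1.65 for EPSTI1, 1.55 for IFITM1, 1.52 for IFIT3, 1.5 for OAS2, 1.40 for IFI6, 1.39 for OAS1, 1.38 for MX2 and 1.34 for IFIT2. It was 1.27 for HERC5, 1.21 for ISG15, 1.16 for SAMD9L, 1.01 for SLFN5, 1.00 for HERC6, 0.92 for DDX60, 0.89 for XAF1, 0.88 for DDX58 and 0.62 for STAT2. Outside that group it was 1.09 for CTH and 0.86 for DDIT3, both of the stress response, 0.78 for HIST1H4I and 0.64 for CDC45. It was negative for TSPAN9 (−1.64), CXCR3 (−1.48), FAM46C (−1.30), PDGFRB (−1.24), ADAMTS10 (−1.05) and SIGLEC6 (−0.86). Of these 30 named genes, 20 passed under all 21 alternatives. The other 10, ADAMTS10, CDC45, CXCR3, DDIT3, DDX58, DDX60, HIST1H4I, ISG15, PDGFRB and TSPAN9, each missed the threshold when some single libraries were left out, with the same sign throughout. ADAMTS10, CDC45 and TSPAN9 also missed it with no filter on low counts, CXCR3, DDX58 and TSPAN9 with the replicate block, and CXCR3 with total counts only.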

How the results depend on the processing

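PRMT5i in EZH2-inhibited cells called 4633 genes, and 5028 in DESeq2 (4581 of them shared), 4479 with total counts only (4191 shared), 3964 with no filter on low counts, 4949 in a fit to the 8 libraries alone (4273 shared) and 4844 with replicates 1 and 2 against 3 and 4 as a term. Leaving out 1 library gave 3709 to 5553 calls, 1758 to 2594 higher and 1927 to 3137 lower. The count of 48 genes whose responses differed was the least stable: 121 in DESeq2, 69 with the term for replicate pairs, and 29 to 124 without 1 library. It moved by over 1.5 times without DMSO replicate 2 (124), EZH2i replicate 2 (31), PRMT5i replicate 3 (30) or PRMT5i replicate 4 (29). The cause was not tested.

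Replicate numbers were checked as a pairing. Deviations of EZH2i and combination libraries of the same number correlated at −0.01, 0.02, 0.11 and 0.06, so the numbers were not taken to pair the samples. With a replicate block 4740 genes were called, 2268 higher and 2472 lower, of which 4422 were shared, and 50 genes differed in response.

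Of 154 named genes, 136 passed the threshold and 130 of them passed under all 14 alternatives. The 6 that did not, BPI, CD74, EZH2, GATA2, LRRC37A16P and RFXAP, kept their direction. Of the 18 that did not pass, BST2, IFI35, MYC and RFXANK passed in some setting: BST2 in DESeq2 and BST2, IFI35 and MYC in the fit to 8 libraries, MYC and RFXANK without EZH2i replicate 4. Genes near 0 counts limit what can be shown: most developmental regulators and markers of other lineages could not be tested at this depth.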
